A study of Homo sapiens with 30 samples.

Results

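OPM2 and H929 are established human multiple myeloma cell lines, malignant plasma cells that grow in culture. RNA of the untreated lines was compared in 3 OPM2 libraries and 3 H929 libraries, each from cells kept with the solvent DMSO for 24 h. These 6 were picked by their titles out of 30 samples in the series. Both lines grew in the same serum-containing medium, and the labels list no hairpin, transgene or drug for these samples. Another 6 libraries, 3 per line, came from cells given 100 nM dBRD9-A, a degrader of the chromatin protein BRD9, for 24 h. They entered no main comparison except the last one, and otherwise only alternatives and tests of change with dBRD9-A. The remaining 18 samples were not analysed here. Each line descends from 1 tumour, so the comparison is of these lines and not of classes of myeloma. Whether the replicates are separate cultures is not in the labels. The p-values therefore speak of the spread among the 6 libraries, and that spread may be technical.

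Plasma cells are antibody-secreting cells at the end of the B cell lineage. IRF4, PRDM1 and XBP1 run their programme, and CD138 (SDC1), CD38 and BCMA (TNFRSF17) mark their surface. Myeloma cells depend on a D-type cyclin, which drives CDK4 and CDK6 in early G1, and different tumours use different ones. OPM2 and H929 are both known to carry the translocation that places FGFR3 and WHSC1 (NSD2, a histone H3 lysine 36 methyltransferase) next to the immunoglobulin heavy-chain enhancers.

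The lines were far apart. The 6 libraries held 58418874 to 76601322 counts over 1 transcript per gene, and the first principal component, which separated the lines, carried 96.6% of the variance of 9298 genes. Of 15668 genes tested, 5742 were called, 36.6% of them. A gene was called when its edgeR adjusted p was under 0.05 and its levels differed at least 2-fold. Of the calls, 3256 (20.8% of genes tested) were higher in H929 and 2486 (15.9%) higher in OPM2. In 1872 genes the difference was 8-fold or more, 1294 of them higher in H929 and 578 higher in OPM2. The libraries of the lines did not overlap in 12490 genes (79.7%), so that a lack of overlap was common. Replicates varied little, with a biological coefficient of variation of 0.09, and even small differences passed the p-value threshold: 12130 genes (77.4%) did. Levels are CPM, the counts of a gene per 1000000 counts of its library, given for replicates 1, 2 and 3 of a line or as mean ± SD (n = 3). Differences are log2, H929 minus OPM2, ± SE, so that a positive value is higher in H929. They are differences in RNA per total RNA of a culture, and fewer cells with a transcript cannot be told apart from less of it in each cell. Among the 9821 genes with a mean of at least 10 CPM in either line, 2626 were called, a lower share than over all genes. Shares of gene lists below are set against all genes, not against genes of like level.

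**Figure D1:**
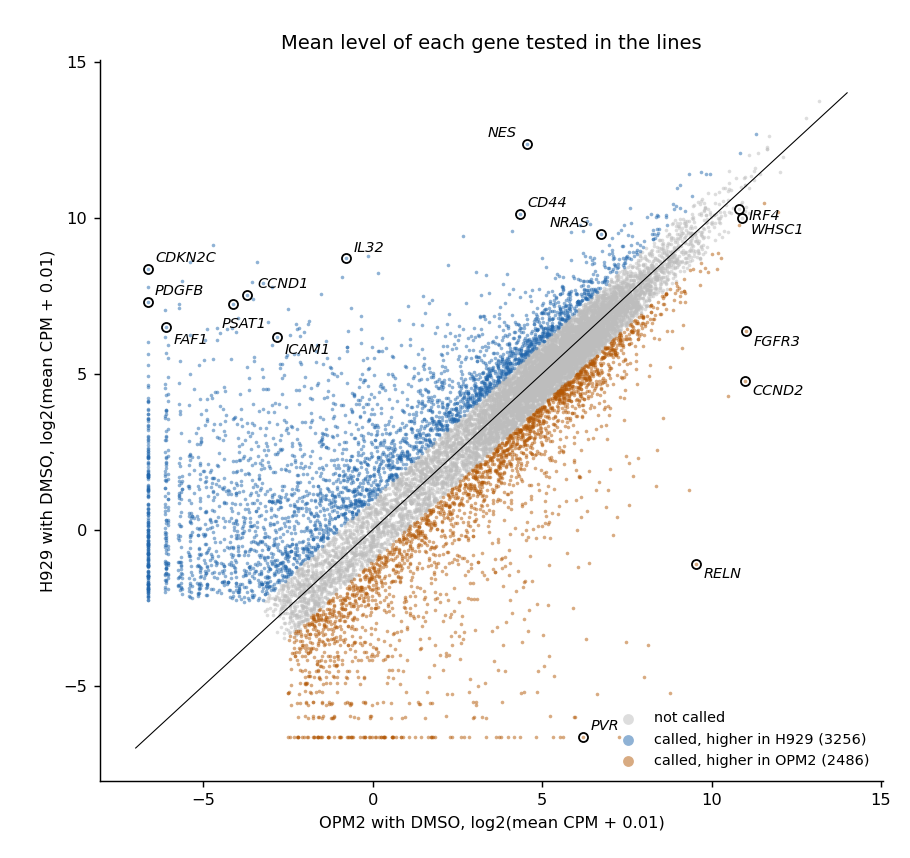
Mean level of the genes tested in OPM2 (x axis) and H929 (y axis), as log2 of mean CPM plus 0.01. Each point is a gene and the line marks equal levels; blue points (3256) were called higher in H929 and orange points (2486) higher in OPM2. CCND1, CDKN2C, FAF1 and PSAT1 lie far to the left, under 0.1 CPM in OPM2, while PVR and RELN lie low, under 1 CPM in H929.

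RNA of the D cyclins differed between the lines. CCND1, which encodes cyclin D1, was at 0.0776, 0.0949 and 0.0256 CPM in the OPM2 libraries and at 166, 209 and 177 in H929, a log2 difference of 11.43 ± 0.19 (adjusted p = 1.8e-14). All 3 OPM2 libraries were near 0 and far from the lowest H929 library. CCND2 stood the other way, at 1980.2, 1597 and 2516 CPM in OPM2 and 20.7, 36.6 and 24.3 in H929 (-6.22 ± 0.23, adjusted p = 3.3e-11). CCND3 was present in both, at 32.8, 27 and 30.3 CPM in OPM2 and 67.6, 58.6 and 64.2 in H929 (1.08 ± 0.09, adjusted p = 7.1e-08), a call that ended with library size as the only scaling (0.99) and with the trend with GC content removed (0.945). Per kilobase of transcript, which allows levels of different genes to be compared, OPM2 had 311 CPM of CCND2, 11.6 of CCND3 and 0.0154 of CCND1. H929 had 42.9 CPM per kilobase of CCND1, 24.6 of CCND3 and 4.17 of CCND2. CDK6, a partner kinase of the D cyclins, was at 538 ± 33.8 CPM in OPM2 and at 901 ± 117 in H929, a difference of 0.75 ± 0.10 that stayed under 2-fold.

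The gene next to CCND1 was in the same state. MYEOV, named for its overexpression in myeloma and the neighbour of CCND1 among genes tested in RefSeq order, was at 0.109, 0.0271 and 0.0895 CPM in OPM2 and at 271, 219.7 and 247 in H929 (11.66 ± 0.19). ANO1, which encodes a calcium-activated chloride channel and lies on the far side of ORAOV1, went the opposite way. It was at 8.52, 6.53 and 6.2 CPM in OPM2 and had no count in H929, at least 423-fold higher in OPM2 against a floor of 3 counts over the H929 group. ORAOV1 and FADD between and beyond them differed by -0.68 ± 0.10 and -0.30 ± 0.08 and were not called. CCND2 stood alone in its neighbourhood: none of the 5 tested genes on either side of it was called, and their log2 differences ran from -0.75 to 0.34.

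RNA of an inhibitor of CDK4 and CDK6 was not detected in OPM2. CDKN2C, which encodes p18INK4c and is a tumour suppressor in myeloma, had no count in any OPM2 library and 319.5, 329 and 328 CPM in H929. Against the floor of 3 counts it was at least 23489-fold higher in H929. FAF1, its neighbour and the gene of a FAS-associated factor, had 1 count over the 3 OPM2 libraries and 87.2, 93.3 and 88.3 CPM in H929 (a ratio of 19387 with a 95% counting interval of 3479 to 765776). RNF11 on the other side was at 48 ± 4.5 CPM in OPM2 and at 75.4 ± 1.33 in H929 and was not called. BEND5, beyond FAF1, was low in both lines, at 0.438 CPM in OPM2 and 0.00565 in H929. Both transcript entries of CDKN2C were at 0 counts in OPM2. RB1, the target of these kinases, was at 133 ± 6.06 CPM in OPM2 and at 65.5 ± 4.82 in H929 (-1.02 ± 0.08). Its call sat at the threshold and ended without OPM2 replicate 3 (-0.98) or H929 replicate 2 (-0.97), with all 12 libraries in the fit (-0.99) and with a trend with length (-0.90) or GC content (-0.87) removed. CDKN2A, which encodes p16INK4a and p14ARF, was at 83.2 ± 6.39 CPM in OPM2 and at 29.5 ± 2.63 in H929 (-1.49 ± 0.09). CDKN1A, which encodes p21, was higher in H929, at 27 ± 3.92 CPM in OPM2 and 103 ± 3.25 in H929 (1.93 ± 0.09). Of the 21 G1 genes tested, 5 were higher in H929, 6 higher in OPM2 and 10 not called. The share called was 52.4%, against 36.6% of all genes.

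**Figure D2:**
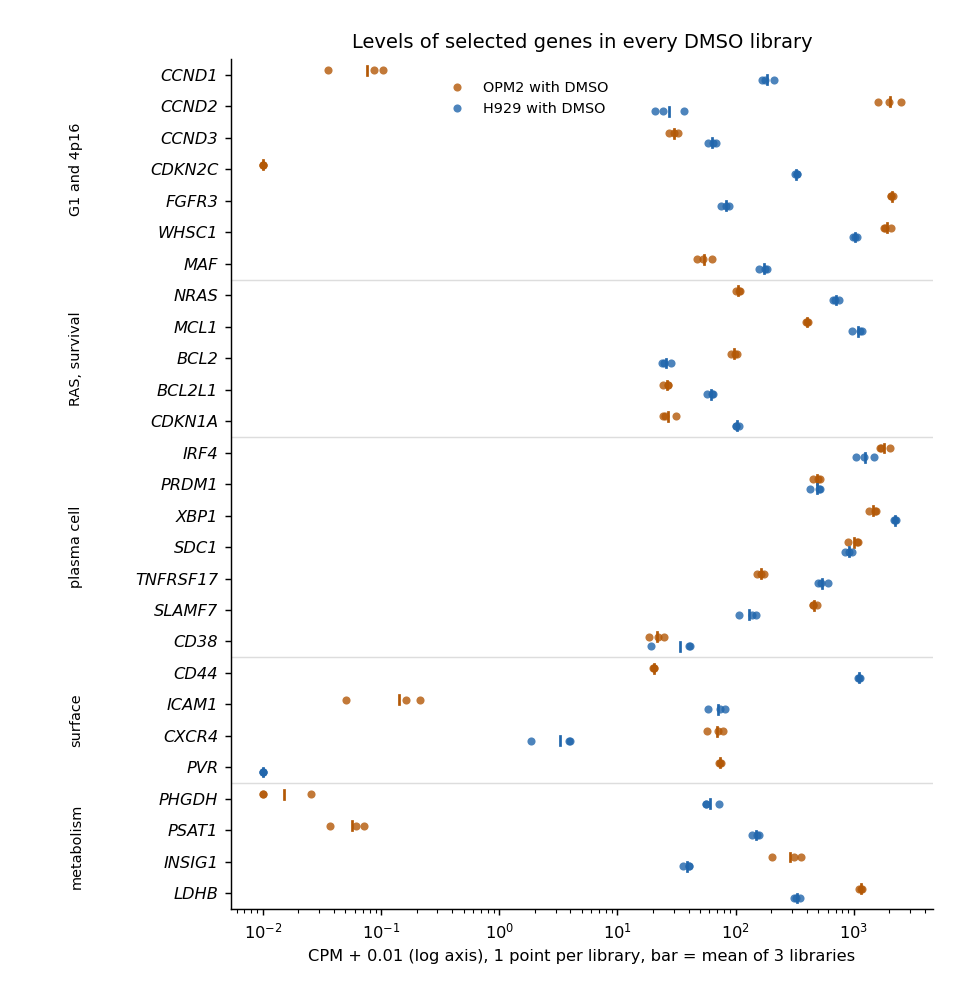
Levels of selected genes in each DMSO library, as CPM plus 0.01 on a log axis; points are libraries (orange OPM2, blue H929) and bars are means of 3 libraries. CCND1 and CCND2 trade places between the lines, CDKN2C and PVR are at 0 counts in one line, and IRF4, PRDM1, XBP1 and SDC1 lie close together.

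FGFR3 was lower in H929 although both lines are known for the same translocation. It was at 2059, 2046 and 2152 CPM in OPM2 and at 75.3, 83.7 and 87.8 in H929 (-4.66 ± 0.10, adjusted p = 1.2e-13). WHSC1, the second gene of that translocation, was high in both lines, at 1848, 1811 and 2056 CPM in OPM2 and 989, 1019.7 and 1068 in H929. Its difference of -0.89 ± 0.09 had an adjusted p of 4.6e-07 but stayed under 2-fold, and the libraries of the lines did not overlap. The 5 tested genes on either side of FGFR3, WHSC1 among them, all had negative differences, from -1.47 for FAM53A to -0.28. TACC3 differed by -0.38 ± 0.09, LETM1 by -0.36 ± 0.08 and NELFA by -0.43 ± 0.09. Of 14 genes listed for that region, 0 were higher in H929 and 3 higher in OPM2, namely FGFR3, NAT8L (21.2 CPM in OPM2, 0.906 in H929) and FAM53A (0.559 and 0.199). The share called was 21.4%, below the 36.6% of all genes. The deposited tables also list WHSC1 transcript entries with fewer reads. The longest of them held 49.8% to 52.5% of the reads of the entry with the most reads in OPM2 and 41.5% to 44.3% in H929, so the libraries of the lines did not overlap, with no test run on these shares.

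MAF, a transcription factor that other myelomas activate by translocation, was higher in H929. It was at 52.5, 47.5 and 62.7 CPM in OPM2 and at 185, 157 and 179 in H929 (1.68 ± 0.10, adjusted p = 4.2e-09). ITGB7, an integrin chain known as a MAF target, was at 3293, 3315 and 3269.7 CPM in OPM2 and at 6434, 6735 and 5842 in H929, just under 2-fold apart (0.94 ± 0.09); without H929 replicate 3 the difference passed 2-fold and was called. CX3CR1, a chemokine receptor of the same published signature, was at 3.17 ± 1.59 and 0.0807 ± 0.0722 CPM (-5.30 ± 0.56). The list of MAF-associated genes thus held 2 members higher in H929 and 6 higher in OPM2 of 13 tested. Calls made up 61.5% of it, against 36.6% of all genes.

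NRAS, which encodes a GTPase that is often mutated in myeloma, was at 106, 101 and 109.6 CPM in OPM2 and at 697, 670.0 and 753 in H929 (2.74 ± 0.08, adjusted p = 3.3e-12). Feedback and target genes of the MAPK cascade differed in both directions. DUSP5, an ERK phosphatase, was at 57.3 ± 4.06 CPM in OPM2 and at 745 ± 51.6 in H929 (3.70 ± 0.09), and the ERK-induced transcription factors EGR1 (0.146 ± 0.121 and 20.3 ± 6.86 CPM) and FOSL1 (0.182 ± 0.0357 and 6.39 ± 1.13 CPM) were also higher in H929. SPRY1, a feedback inhibitor, was at 36.1 ± 1.51 CPM in OPM2 and at 2.64 ± 0.128 in H929 (-3.78 ± 0.10), and ETV1 was higher in OPM2 too (-4.16 ± 0.18). In all, 11 of 31 such genes were higher in H929 and 6 higher in OPM2, so that 54.8% were called against 36.6% of all genes.

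RNA levels of BCL2 family genes also differed. BCL2, the target of venetoclax, was at 98.2, 91.2 and 103 CPM in OPM2 and at 23.9, 28.4 and 24.7 in H929 (-1.93 ± 0.08, adjusted p = 1.5e-10). MCL1, the main survival factor of plasma cells, was at 406, 391 and 403 CPM in OPM2 and at 1126, 970.2 and 1161 in H929 (1.44 ± 0.09, adjusted p = 4.1e-09). BCL2L1, which encodes BCL-XL, was at 26 ± 1.58 and 61.5 ± 3.89 CPM (1.24 ± 0.08). Among the BH3-only members, BMF (46.5 ± 7.31 and 129 ± 7.75 CPM) and BIK (0.305 ± 0.0911 and 3.62 ± 1.05 CPM) were higher in H929. PMAIP1, which encodes the BH3 protein NOXA, was higher in OPM2, with 15.7, 15.6 and 19.5 CPM there and 1.56, 1.53 and 1.64 in H929 (-3.43 ± 0.13). BAK1, an effector of mitochondrial permeabilisation, was at 148 ± 18.3 and 124 ± 5.99 CPM, and its libraries overlapped.

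MYC differed less than its relatives. It was at 280.4, 292 and 289.8 CPM in OPM2 and at 135, 268 and 211 in H929, with a wide spread in H929, and was not called (-0.49 ± 0.17). MYCN was at 7.52, 7.28 and 7.63 CPM in OPM2 and at 0.236, 0.187 and 0.194 in H929 (-5.17 ± 0.18), and MYCL, low in both, was higher in H929 (0.586 and 2.42 CPM).

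The transcription factors that make a plasma cell were shared. IRF4 was at 1709, 1671 and 2039 CPM in OPM2 and at 1043, 1493 and 1209 in H929 (-0.53 ± 0.13), PRDM1 at 495, 450.0 and 516 and 427, 507 and 521 (-0.01 ± 0.09), and XBP1 at 1539.8, 1337 and 1496 and 2217, 2188 and 2274 (0.61 ± 0.09). None of these was called. The PRDM1 libraries overlapped, while those of IRF4 (edgeR adjusted p = 0.0016) and XBP1 (edgeR adjusted p = 2.1e-05) did not. IKZF1 and IKZF3, the Ikaros family factors that lenalidomide directs to cereblon, differed in opposite directions: IKZF1 was at 193 ± 2.52 CPM in OPM2 and at 94.5 ± 11.4 in H929 (-1.03 ± 0.09), IKZF3 at 133 ± 7.09 and 309.6 ± 10.5 (1.22 ± 0.07). The IKZF1 call ended without H929 replicate 2 (-0.93) and with a trend with length (-0.89) or GC content (-0.95) removed. CRBN, which encodes cereblon, was at 28.6 ± 1.01 and 33.2 ± 1.83 CPM and was not called. Of 33 B cell and plasma cell factors tested, 8 were higher in H929, 7 higher in OPM2 and 18 not called, so that 45.5% were called against 36.6% of all genes. ETS1 was at 169.9 ± 11.7 CPM in OPM2 and at 29.6 ± 3.85 in H929 (-2.52 ± 0.10) and SPIB at 2.62 ± 0.153 and 0.0771 ± 0.0365 (-5.04 ± 0.29). POU2F2, which encodes the octamer factor OCT2, was at 2.29 ± 0.483 and 30.3 ± 7.15 CPM (3.73 ± 0.18), and SPI1, which encodes the myeloid and B cell factor PU.1, at 0.144 ± 0.0637 and 8.21 ± 0.859 (5.78 ± 0.23). BRD9, the protein the study degrades, was at 88.6 ± 3.79 CPM in OPM2 and at 84.7 ± 11.8 in H929, and its libraries overlapped (-0.06 ± 0.09, adjusted p = 0.53).

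Plasma cell surface and secretion genes leaned to H929, where 20.8% of all genes were higher, against 15.9% in OPM2. Of 41 tested, 17 were higher in H929, 2 higher in OPM2 and 22 not called. SDC1 was at 1078, 894 and 1059.7 CPM in OPM2 and at 906, 834 and 967 in H929, with overlapping libraries, and CD38 at 24.7, 22.1 and 18.6 and 40.7, 19.4 and 41, also overlapping. Targets of antibodies and engineered T cells split between the lines. TNFRSF17, which encodes BCMA, was at 165, 153 and 174 CPM in OPM2 and at 526, 602 and 499.8 in H929 (1.73 ± 0.09, adjusted p = 8.5e-10). SLAMF7, the target of elotuzumab, was at 489.7, 451 and 447 CPM in OPM2 and at 107, 149 and 136 in H929 (-1.82 ± 0.11, adjusted p = 3.6e-09). GPRC5D, another such target, differed by less than 2-fold (117 ± 23.7 and 65.7 ± 7.26 CPM), and FCRL5 was low in both lines (0.4 and 3 CPM). MZB1, a chaperone of antibody assembly, was at 201 ± 12.4 CPM in OPM2 and at 676 ± 40.2 in H929 (1.75 ± 0.08), and DERL3, a channel of endoplasmic reticulum disposal, at 14.5 ± 1.4 and 235 ± 26.8 (4.02 ± 0.11).

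IGLL5, which shares the lambda constant segment, was at 163, 156 and 187 CPM in OPM2 and at 895, 902 and 815 in H929 (2.37 ± 0.09). Its second transcript entry held 61.1% to 67.1% of the reads of the first in OPM2 and 95% to 95.5% in H929. Reads from a rearranged lambda locus can fall on this gene, and which part of the signal is IGLL5 itself was not tested. IGJ, the joining chain, was at 7055 ± 786 CPM in OPM2 and at 9328 ± 245 in H929 and was not called.

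More of the earlier B cell genes were higher in H929: 11 of 21 tested, or 7 with the 1 CPM filter, against 4 higher in OPM2. Over all genes, 20.8% were higher in H929 and 15.9% higher in OPM2. Of those listed, 15 were under 1 CPM in all 6 libraries. MS4A1 (CD20) and PAX5, which define B cells, were too low to be tested. PTPRC, the leukocyte antigen CD45, was at 0.0856 CPM in OPM2 and at 2.15 in H929 (4.59 ± 0.43), and CD53, a tetraspanin, at 9.73 and 116 (3.58 ± 0.14). BLNK, the B cell linker, was higher in OPM2 (8.42 CPM, 0.202 in H929). Markers of other lineages were mostly absent. CD3D, CD3G, LYZ, MPO and EPCAM were too low to be tested. Markers that reached 20 CPM in a line were CD28 (236 CPM in OPM2, 433 in H929), VIM (2052 and 1288), CD3E (0.274 and 23.3), CD68 (4.75 and 121), PECAM1 (1.46 and 31.9) and HBD, the delta globin gene (70.1 and 5.81). CD28 is also on the list of plasma cell surface genes. Summed levels of the 16 erythroid and megakaryocyte markers ran from 61.9 to 85.6 CPM in the OPM2 libraries and from 4.81 to 9.07 in H929, and 14 of the 16 were under 1 CPM in all libraries.

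Among lists with at least 20 genes tested, type I interferon stimulated genes had the highest share of calls, 77.5%, against 36.6% of all genes. Of 40 tested, 26 were higher in H929, 5 higher in OPM2 and 9 not called, with a median log2 difference of 2.85. Interferon signals through STAT proteins and IRF9, which bind a response element built of paired GAAA blocks before their target genes. The letters GAAANNGAAA, searched on both strands in the 250 bases before the RefSeq start, were found in 13 of 21 list members higher in H929 that are in the promoter table (61.9%), in 2 of 5 higher in OPM2 (40.0%) and in 3 of 7 not called (42.9%). They were found in 839 of 27305 promoters of that length (3.07%). Shown here are the 150 bases before the start of 4 members that were higher in H929 and of EPSTI1, higher in OPM2, all chosen after their values were seen. Sequences are RefSeq's, of build GRCh38.p14, written 5′ to 3′ on the gene's strand. Every match that starts within a stretch is in capitals (on the other strand it reads TTTCNNTTTC, and matches may overlap). A further IFI6 match starts before its stretch and is not marked. The sequences show that a gene of either direction can carry the letters, and a match is no evidence of binding.
ISG15 (chr1:1013347-1013496, plus strand): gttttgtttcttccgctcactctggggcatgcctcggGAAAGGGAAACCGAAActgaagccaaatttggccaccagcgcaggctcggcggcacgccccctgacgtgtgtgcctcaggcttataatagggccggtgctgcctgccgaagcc
IFI6 (chr1:27672193-27672342, minus strand): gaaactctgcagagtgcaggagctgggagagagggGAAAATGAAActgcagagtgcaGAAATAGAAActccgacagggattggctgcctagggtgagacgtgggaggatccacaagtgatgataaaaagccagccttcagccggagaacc
HERC5 (chr4:88456969-88457118, plus strand): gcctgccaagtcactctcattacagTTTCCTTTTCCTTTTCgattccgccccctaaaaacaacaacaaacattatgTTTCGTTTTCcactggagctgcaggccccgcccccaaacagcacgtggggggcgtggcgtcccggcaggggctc
LGALS3BP (chr17:78979924-78980073, minus strand): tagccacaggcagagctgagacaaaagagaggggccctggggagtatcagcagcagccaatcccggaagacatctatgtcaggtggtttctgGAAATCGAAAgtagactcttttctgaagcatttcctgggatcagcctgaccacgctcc
EPSTI1 (chr13:42992242-42992391, minus strand): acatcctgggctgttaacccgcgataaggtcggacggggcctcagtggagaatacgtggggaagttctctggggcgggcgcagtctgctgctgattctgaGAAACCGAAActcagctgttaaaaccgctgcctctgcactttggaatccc

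Genes that make and attach ISG15 were among those higher in H929. HERC5, the ligase that attaches ISG15 to proteins, had no count in OPM2 and 30.2, 30.7 and 30.1 CPM in H929, at least 2189-fold higher. UBE2L6, the conjugating enzyme of the same step, was at 0.512, 0.366 and 0.332 CPM in OPM2 and at 38.4, 38 and 34.7 in H929 (6.53 ± 0.14, adjusted p = 1.3e-13). ISG15 itself was at 0.0931, 0.108 and 0.102 and 6.31, 9.51 and 4.7 CPM (6.05 ± 0.33). These 3 genes were thus under 1 CPM in every OPM2 library and above it in every H929 library. USP18, which removes ISG15, was not called. OAS2, an RNA-sensing synthetase, was at 0.807, 0.773 and 0.742 CPM in OPM2 and at 63.1, 64.8 and 63.7 in H929 (6.37 ± 0.10, adjusted p = 1.1e-14). IFI6 was at 0.226 ± 0.0562 and 11 ± 5.48 CPM, ISG20, an exonuclease, at 0.421 ± 0.12 and 32.2 ± 2.9, and LGALS3BP at 0.0483 ± 0.0407 and 1.04 ± 0.0832. Of the signalling proteins, STAT2 was at 68.5 ± 8.78 and 62.7 ± 7.64 CPM and was not called, while IRF9 (9.9 ± 0.838 and 23.9 ± 0.235) and IRF7 (0.513 ± 0.063 and 16 ± 3.86) were higher in H929.

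The members higher in OPM2 were EPSTI1 (6.78 ± 1.31 CPM in OPM2, 0.866 ± 0.171 in H929), DDX60 (2.54 ± 0.392 and 0.668 ± 0.153), PARP9 (2.31 ± 0.498 and 0.869 ± 0.421), DTX3L (9.74 ± 2 and 2.84 ± 0.363) and SAMD9L (30.5 ± 8.73 and 12.9 ± 2.04). PARP9 and DTX3L form a complex and are neighbours. BST2, a tether of enveloped viruses, was high in both lines (201 ± 18.2 and 147 ± 4 CPM) and was not called.

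**Figure D3:**
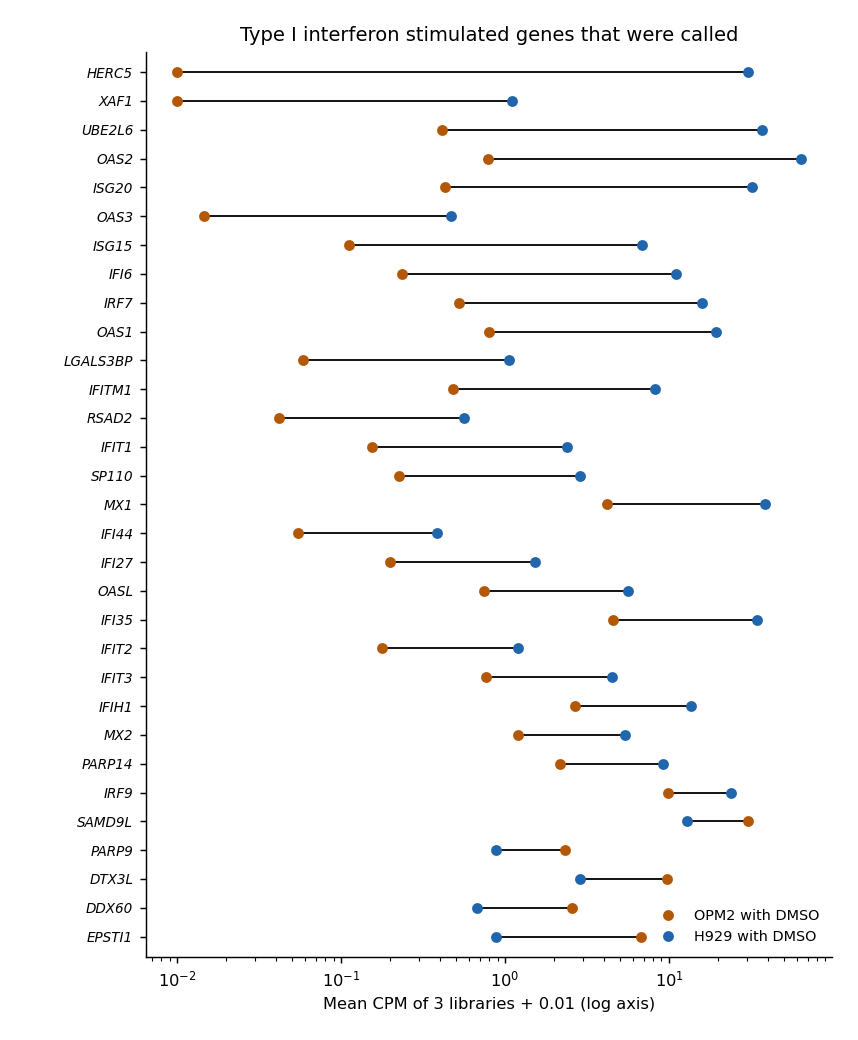
Mean level of the interferon stimulated genes that were called, as CPM plus 0.01 on a log axis, orange for OPM2 and blue for H929, with a line joining the lines' values. In 26 genes the H929 point lies to the right, and in 5, EPSTI1 to SAMD9L at the bottom, the OPM2 point does.

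More sensors of foreign nucleic acid were higher in H929 than in OPM2. ZBP1, a sensor of left-handed nucleic acid, was at 10.2, 8.99 and 8.5 CPM in OPM2 and at 186, 176 and 187 in H929 (4.31 ± 0.09), and IFI16, a DNA sensor, at 15.3, 16.8 and 14.8 and 289, 289.6 and 294 (4.22 ± 0.08). TMEM173, which encodes STING, went the other way, at 52 ± 7.26 CPM in OPM2 and 11.8 ± 3.96 in H929 (-2.13 ± 0.19). MAVS, the adaptor of RNA sensing, was at 196 ± 2.97 and 184 ± 39.5 CPM, with overlapping libraries. Of 19 such genes, 8 were higher in H929 and 2 higher in OPM2, or 1 with all 12 libraries in the fit. All genes leaned the same way, with 20.8% higher in H929 and 15.9% higher in OPM2.

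The APOBEC3 cytidine deaminases, whose mutation signature is known in myeloma genomes, were higher in H929 throughout. APOBEC3G was at 0.0155, 0 and 0.0128 CPM in OPM2, 2 counts in all, and at 51.1, 33.8 and 41.3 in H929 (a ratio of 4578 with a 95% counting interval of 1267 to 37812, adjusted p = 8.2e-13). APOBEC3B was at 7.11, 4.46 and 6.03 and 109, 76.6 and 92.2 CPM (3.98 ± 0.16, adjusted p = 7e-11). APOBEC3F was at 0.21 ± 0.0363 and 16.1 ± 4.82 CPM, and APOBEC3H had no count in OPM2 and 9.88 ± 3.28 CPM in H929. Of 8 family members tested, 7 were higher in H929, against 20.8% of all genes, and the other, APOBEC2, was not called. Its difference of -0.99 ± 0.25 lay at the threshold and was called higher in OPM2 without OPM2 replicate 3, H929 replicate 1 or H929 replicate 3, with library size as the only scaling and in 3 other alternatives. The median log2 difference was 5.12, or 3.98 with the 2 members that had no count in OPM2 set at their bounds. The APOBEC3 genes lie next to each other and share sequence, so reads of one may have been counted for another. PDGFB, a growth factor gene 2 tested genes beyond APOBEC3H, had no count in OPM2 either and 171, 151 and 151 CPM in H929, at least 11367-fold higher. CBX7, between them, was at 9.08 ± 0.587 and 12.9 ± 0.746 CPM and was not called.

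Antigen presentation could be read only in part, because 10 of the 21 class I genes tested, the HLA genes among them, are placed more than once on the authors' reference. Of the 11 placed once, 5 were higher in H929, 1 was higher in OPM2 and 5 were not called. Over all genes, 20.8% were higher in H929 and 15.9% higher in OPM2. B2M, the light chain of class I molecules, was at 823, 875 and 869 CPM in OPM2 and at 863, 792 and 770.3 in H929, with overlapping libraries. ERAP2, a peptidase that trims peptides, was at 7.76 ± 0.485 and 54 ± 7.4 CPM (2.80 ± 0.11), and the proteasome activators PSME1 (62.6 ± 6.42 and 205 ± 11.4) and PSME2 (73.9 ± 5.53 and 229.8 ± 17.9) were higher in H929. CIITA, the switch of class II genes, was low in both lines but higher in OPM2 (3.82 and 0.464 CPM), and CD74 was under 1 CPM in both.

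Adhesion genes separated the lines widely. CD44, the hyaluronan receptor, was at 20.5, 20.3 and 20 CPM in OPM2 and at 1093, 1131 and 1099 in H929 (5.77 ± 0.09, adjusted p = 1.1e-14). ICAM1, the ligand of the integrin LFA-1, was at 0.202, 0.0407 and 0.153 CPM in OPM2 and at 81.3, 58.7 and 74.3 in H929 (9.09 ± 0.23, adjusted p = 7e-13). CXCR4, which holds plasma cells in the marrow, was at 77.7, 57.5 and 71.5 CPM in OPM2 and at 3.89, 1.87 and 3.96 in H929 (-4.41 ± 0.21, adjusted p = 3.1e-10). CD44 and ICAM1 were low in every OPM2 library and CXCR4 in every H929 library. Of 32 integrin and adhesion genes, 15 were higher in H929 and 8 higher in OPM2, 71.9% called against 36.6% of all genes. They included ITGA8 (3.15 ± 0.909 and 153 ± 24.7 CPM) and ITGA2 (28.1 ± 3.88 and 0.818 ± 0.327 CPM). CCL3, a chemokine that feeds osteoclasts in myeloma, was at 2.03, 2.64 and 1.42 CPM in OPM2 and at 128, 200.1 and 104 in H929 (6.15 ± 0.26). DKK1, an inhibitor of bone formation in myeloma, was near 1 CPM in both lines.

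PVR, the ligand of DNAM-1 and TIGIT on natural killer and T cells, was at 75.8, 73.4 and 72.6 CPM in OPM2 and had no count in H929, at least 4419.5-fold higher in OPM2. The genes beside it, ZNF180 and BCL3, were not called. PVRL2, a second ligand of these receptors, was at 0.228 CPM in OPM2 and at 3.92 in H929 (4.10 ± 0.25). ICOSLG, the ligand of ICOS, was at 0.0311 ± 0.0342 and 21.3 ± 1.57 CPM (9.28 ± 0.26). LTBR, the lymphotoxin beta receptor that feeds the alternative NF-kB pathway, had 2.09 ± 0.327 CPM in OPM2 and no count in H929, at least 125-fold higher in OPM2, and its neighbour TNFRSF1A was at 31.3 ± 4.63 and 6.98 ± 1.07 (-2.16 ± 0.13). The negative regulators TRAF3 (40.3 ± 1.88 and 36.8 ± 4.68 CPM) and CYLD (46.3 ± 2.58 and 43.7 ± 2.34), lost in some myelomas, had overlapping libraries. Of 30 NF-kB genes, 6 were higher in H929 and 6 higher in OPM2, so that 40.0% were called, near the 36.6% of all genes.

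Of 32 genes of the interleukin-6 receptor and STAT list, 6 were higher in H929, 4 higher in OPM2 and 22 not called, so that 31.2% were called, below the 36.6% of all genes. IL6R, the receptor of the main myeloma growth factor, was at 353, 244 and 444 CPM in OPM2 and at 703, 904 and 799 in H929 (1.21 ± 0.17), and its signalling chain IL6ST at 268, 266 and 287 and 96.4, 133 and 117 (-1.24 ± 0.10). JAK3 (4.86 ± 0.645 and 78.2 ± 7.6 CPM) and STAT4 (0.967 ± 0.0238 and 57.6 ± 5.71) were higher in H929. Beside FGFR3, the receptor tyrosine kinases included NTRK3 at 29.4 ± 3.35 CPM in OPM2 and 0.0335 ± 0.00189 in H929, and FGFR1 at 0.0757 ± 0.0441 and 16.3 ± 1.98. IGF1R, a growth factor receptor of myeloma, differed by less than 2-fold (64.8 ± 3.61 and 43 ± 4.97 CPM).

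Cancer-testis genes, germline genes that tumours reactivate, were called in both directions, 8 higher in H929 and 9 higher in OPM2 of 25 tested. The share called was 68.0%, against 36.6% of all genes. SSX1 was at 0.295, 0.474 and 0.243 CPM in OPM2 and at 203, 178 and 188 in H929 (9.13 ± 0.15), and MAGEB2 at 0.14, 0.108 and 0.0767 and 108, 96.7 and 97.2 (9.86 ± 0.14). CTAG2 was at 191, 209 and 167 CPM in OPM2 and at 1.67, 1.7 and 1.76 in H929 (-6.79 ± 0.11). MAGEC1 was high in both lines, at 372 ± 37 and 356 ± 18.8 CPM, with overlapping libraries, and MAGEA1 at 143 ± 7.39 and 166 ± 3.47. Several of these genes have near-identical relatives, so their single values are uncertain. Of 11 HOX and partner genes tested of 42 listed, 8 were higher in H929 and 2 higher in OPM2. Calls made up 90.9% of those tested, against 36.6% of all genes. A low gene can pass the filter through the line where it is higher, which may raise this share. Those higher in H929 were HOX genes with low levels, such as 1.59 CPM for HOXC9, which had no count in OPM2, and their number moved to 5 with the 1 CPM filter and 13 with no filter. The 2 higher in OPM2 were partner genes, and the summed level of the list was higher there, 264 to 272 CPM against 34.5 to 44.0 in H929.

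RNA of the first 2 enzymes of serine synthesis was present in H929 and near 0 in OPM2. PHGDH, which catalyses the first step of the pathway, was at 0.0155, 0 and 0 CPM in OPM2, 1 count in all, and at 71.9, 55.6 and 55.6 in H929 (a ratio of 13289 with a 95% counting interval of 2385 to 524915, adjusted p = 1.1e-13). PSAT1, the second enzyme, was at 0.0621, 0.0271 and 0.0511 CPM in OPM2 and at 151, 159 and 138 in H929 (11.60 ± 0.16, adjusted p = 4.6e-15). PSPH, the last, was present in both, at 16.3 ± 2.17 and 48.2 ± 2.21 CPM (1.57 ± 0.10). RNA of all 3 enzymes was thus higher in H929. SHMT1, which turns serine into glycine, was higher in OPM2 (108 ± 14.9 and 45.9 ± 0.878 CPM), and its mitochondrial partner SHMT2 was not called (231 ± 22.7 and 189 ± 6.19). CBS, which uses serine to make cystathionine, was at 0.0385 ± 0.0247 CPM in OPM2 and at 8.16 ± 0.967 in H929 (7.71 ± 0.27).

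Sterol and fatty acid synthesis leaned to OPM2. Of 35 genes tested, 15 were higher in OPM2 (15.9% of all genes tested were), 3 higher in H929 and 17 not called, with a median log2 difference of -0.73. INSIG1, the sterol-responsive retention protein, was at 311, 202 and 359 CPM in OPM2 and at 40.4, 40.7 and 35.8 in H929 (-2.90 ± 0.17). FDFT1, the first enzyme committed to sterols, was at 218 ± 21.7 and 42.2 ± 1.92 CPM (-2.37 ± 0.09), and SREBF2, the transcription factor of the pathway, at 360.2 ± 20.6 and 122 ± 9.03 (-1.57 ± 0.08). HMGCS1, an early enzyme, was equal within error (-0.02 ± 0.11), and FADS2, a desaturase, was higher in H929 (5.86 ± 0.397 and 75.2 ± 5.02 CPM).

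Glycolysis and hypoxia genes leaned to H929, 14 of 32 against 2 higher in OPM2, where the shares of all genes were 20.8% and 15.9%. Those higher in H929 were led by hypoxia-responsive genes and isoenzymes: BNIP3 (0.303 ± 0.0769 and 41.3 ± 13.3 CPM), ENO2 (0.147 ± 0.0266 and 29.2 ± 2.98), HK1 (1.27 ± 0.302 and 22.2 ± 1.52) and NDRG1 (22.3 ± 7.42 and 198 ± 29). The core enzymes ENO1 and GAPDH differed by 0.55 ± 0.08 and -0.56 ± 0.11 and were not called. LDHB, which favours the use of lactate, was higher in OPM2, at 1142, 1174 and 1105 CPM against 353, 326 and 310.2 in H929 (-1.79 ± 0.08).

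Genes of the unfolded protein response were called in 35.6% of 45, near the background of 36.6%, but the direction was uneven, 15 higher in H929 and 1 higher in OPM2. ERN1, which encodes the sensor IRE1, was at 28.5 ± 2.18 and 84.4 ± 11.1 CPM (1.56 ± 0.10), DNAJB9 at 31.5 ± 4.5 and 91.2 ± 6.57, and SEL1L, a scaffold of the disposal ligase, at 185 ± 23 and 688 ± 70.8. The general chaperone HSP90B1 differed by 0.37 ± 0.08 and was not called.

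**Figure D4:**
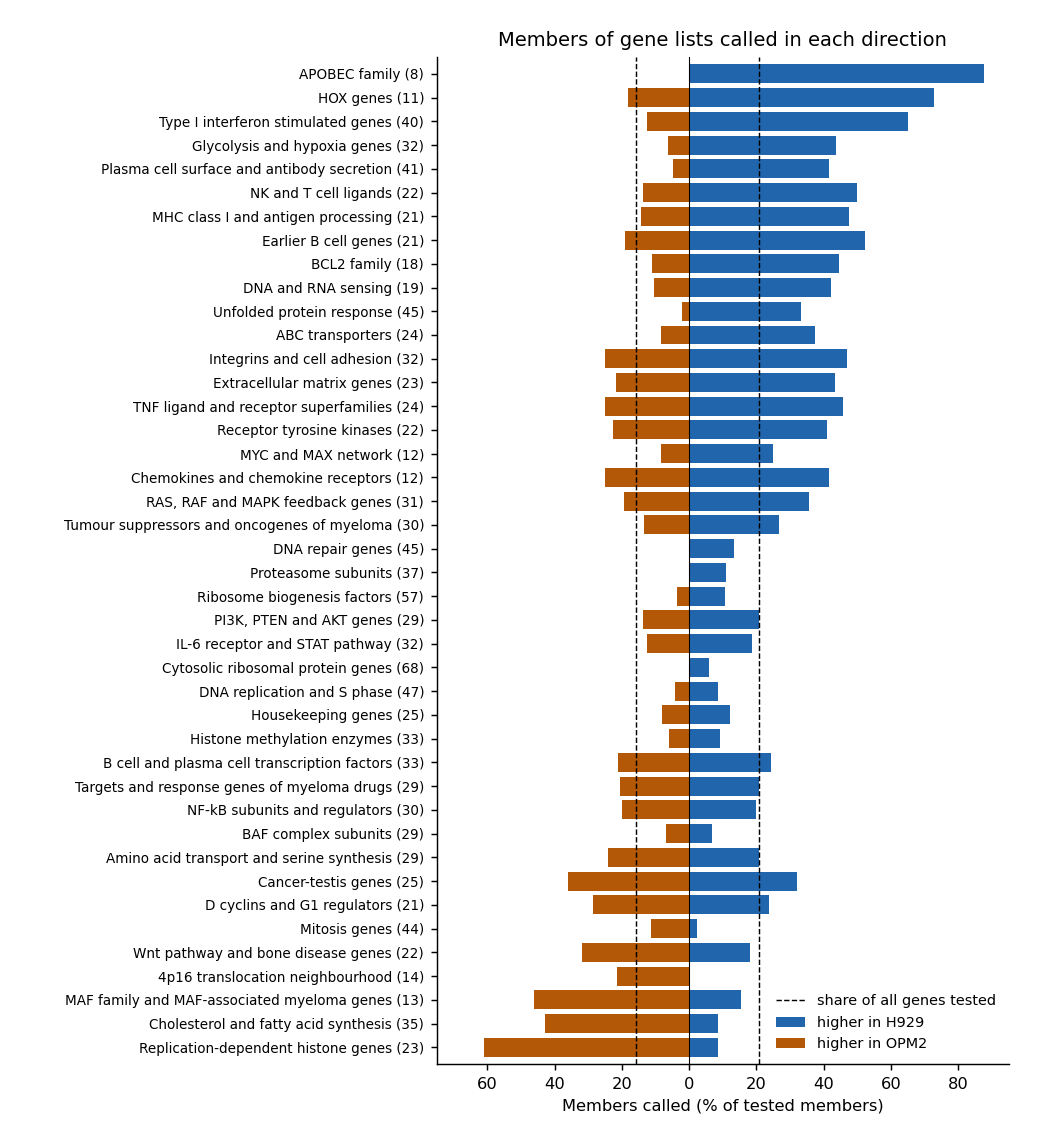
Share of tested members of gene lists called higher in H929 (blue, to the right) and higher in OPM2 (orange, to the left), with the number tested in parentheses. Dashed lines mark 20.8% and 15.9%, the shares over all genes; the APOBEC and interferon lists reach far right, replication-dependent histones and sterol synthesis reach left, and ribosomal protein, proteasome and S phase lists stay short of both lines.

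Lists of the shared machinery of the cell held few calls. Calls made up 5.88% of cytosolic ribosomal protein genes, 10.8% of proteasome subunits, 12.8% of S phase genes, 13.3% of DNA repair genes, 13.6% of mitosis genes, 13.8% of BAF complex subunits and 15.2% of histone methylation enzymes, all below the background of 36.6%. MKI67, the proliferation marker, was at 736 ± 109 CPM in OPM2 and at 838 ± 119 in H929, with overlapping libraries. Exceptions among mitosis genes were CENPF (801 ± 124 and 228 ± 26 CPM) and CDK1 (157 ± 13.2 and 68.1 ± 5.72), both higher in OPM2. RRM2, the ribonucleotide reductase subunit, was higher in H929 (341 ± 58 and 1067 ± 30.2), and PCNA was higher in OPM2 (248 ± 18.8 and 112 ± 7.75). Within the BAF complex, BCL11A (19.6 ± 1.22 and 0.387 ± 0.0647 CPM) and PHF10 (67.3 ± 0.801 and 23.2 ± 1.33) were higher in OPM2, and DPF1 (0.0875 ± 0.0722 and 13.9 ± 1.06) and DPF3 (24.5 ± 2.51 and 54.2 ± 6) higher in H929. Replication-dependent histone genes were an exception as a list, 14 of 23 higher in OPM2, against 15.9% of all genes. Their messages lack a poly(A) tail and enter a poly(A)-selected library poorly, and HIST1H4C stood at 88.3, 4.34 and 6.16 CPM in the OPM2 libraries.

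Further wide differences were named by size among called genes with non-overlapping libraries and a mean of at least 3 log2 CPM over the 6 libraries. Higher in H929 were F2R, the thrombin receptor (1.04, 0.908 and 0.742 CPM in OPM2, 439.5, 442 and 442 in H929), IL32, a cytokine (0.543, 0.624 and 0.537 and 479.6, 344 and 432), and MAP1B, a microtubule protein of neurons (0.543, 0.502 and 0.537 and 285, 242 and 295). NES, which encodes nestin, reached 5082, 5258 and 5519.5 CPM in H929 against 32.6, 20 and 17.9 in OPM2 (7.82 ± 0.23). Higher in OPM2 were RELN, which encodes the neuronal matrix protein reelin (803, 766 and 681 CPM in OPM2, 0.409, 0.441 and 0.528 in H929), MYBPC2, a muscle protein (723, 499.6 and 731 and 3.09, 1.71 and 2.38), and SPN, the sialophorin CD43 (358, 294 and 333 and 3.48, 1.15 and 3.2). Log2 differences were -10.67 ± 0.14 for RELN and 8.95 ± 0.12 for F2R.

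Some called genes lay in runs of neighbours. In the order of RefSeq genes, 15443 of the genes tested could be placed, and 215 runs of at least 4 neighbours were called in 1 direction, 125 of them higher in H929 and 90 higher in OPM2. Chromosome 13 leaned to OPM2: 140 of 277 genes tested were higher in OPM2 and 24 higher in H929, with a median log2 difference of -1.01. Chromosome 5 leaned to H929: 354 of 731 genes were higher in H929 and 59 higher in OPM2, with a median of 0.96. These were the chromosomes with the highest shares of calls, 59.2% and 56.5% against 36.6% over all genes. DNA copy number was not measured in these files, and its part in these blocks was not tested.

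**Figure D5:**
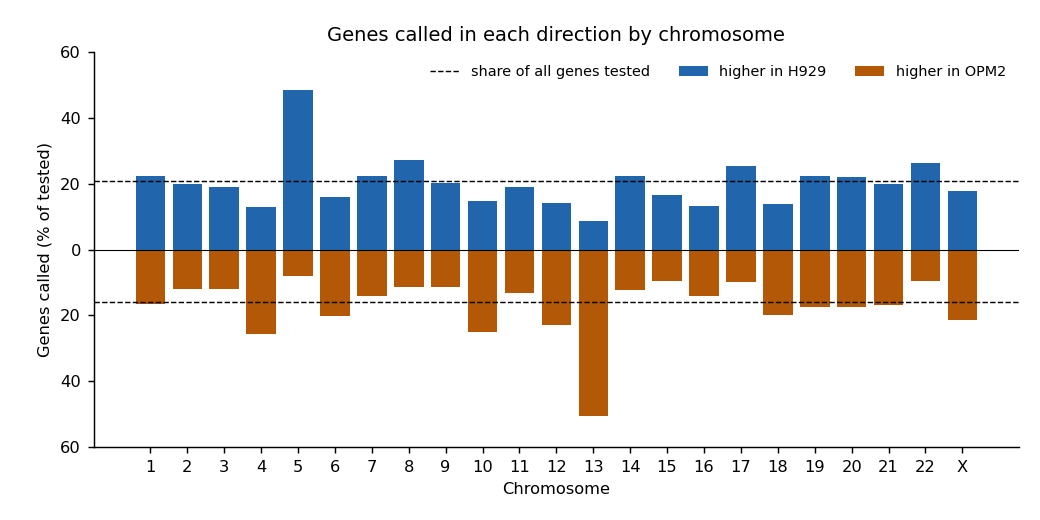
Share of the genes tested on each chromosome that were called higher in H929 (blue, up) or higher in OPM2 (orange, down). Dashed lines mark 20.8% and 15.9%, the shares over all genes; chromosome 5 rises and chromosome 13 drops well past them.

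Some of the genes named above are on these chromosomes. RB1 and EPSTI1 are on chromosome 13, as is DIS3, a myeloma-mutated subunit of the RNA exosome at 133 ± 6.82 CPM in OPM2 and 60.3 ± 5.56 in H929 (-1.15 ± 0.08), in a run of 20 genes. The DIS3 call ended with the trend with length removed (-0.98). On chromosome 5 are NPM1 (909.8 ± 49.9 and 2681 ± 59 CPM), RPS14 (399 ± 13.1 and 1041 ± 176), RAD50 (70.7 ± 0.933 and 224 ± 18.8) and NSD1 (81.8 ± 3.06 and 198 ± 21.9), all higher in H929. The chromosome also holds genes named above of both directions. MZB1, EGR1, F2R, MAP1B and ERAP2 were higher in H929, and ITGA2, TMEM173 and IL6ST higher in OPM2. NRAS lies in a run of 11 genes higher in H929, from BCL2L15 to SIKE1, with a median log2 difference of 1.42. LDHB lies in a run of 14 higher in OPM2, with a median of -2.55. The longest run, 23 genes from NDUFA2 to PCDHAC2, includes protocadherin genes that share exons, so those members do not count separately. A pair of adjacent genes on in 1 line and off in the other, as at CDKN2C with FAF1 and at CCND1 with MYEOV, was also found at EVI2A (0.0337 ± 0.0253 and 79.4 ± 12.9 CPM) and EVI2B (0.0949 ± 0.0838 and 239 ± 33), which lie within an intron of NF1. On meant at least 10 CPM and off under 0.1 CPM, and 114 genes were on in H929 alone and 39 in OPM2 alone.

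The same contrast was then read in libraries that the main fit above did not use, those of cells given dBRD9-A. There 5678 of 15806 genes were called (35.9%). Of the 5742 genes called in DMSO, 5539 were tested again and 4596 (83.0%) were called in the same direction, while 3 were called in the opposite one. OPM2 replicate 2 with dBRD9-A stood apart from its mates, with an SD of its log2 deviation of 0.769 over 9527 genes, against 0.106 to 0.431 in the other 11 libraries of both treatments. Without it 5017 of 5663 (88.6%) were called in the same direction. The log2 differences with dBRD9-A were 9.88 for CCND1, -7.90 for CCND2, -4.41 for FGFR3, 2.27 for NRAS, 6.35 for CD44, 12.07 for PSAT1 and -9.86 for RELN. Each had the direction seen in DMSO. The difference between lines itself changed with dBRD9-A, at an edgeR adjusted p under 0.05 in the fit of all 12 libraries, in 96 of 16408 genes (0.585%). Without OPM2 dBRD9-A replicate 2 it changed in 509.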

How the data were processed

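RNA sequencing of the 6 DMSO libraries was compared, with the 6 dBRD9-A libraries as a second reading of the same contrast. A column kit gave the RNA and a stranded poly(A) kit the libraries, per the labels' protocols. STAR, featureCounts and the human build hg19 (GRCh37) appear in the submitters' processing notes without versions. How featureCounts treated strand is not stated there, so genes that overlap on the 2 strands may share reads. Per the file headers, each deposited file lists 51780 RefSeq transcripts under 25680 symbols each with its count, FPKM and TPM. The deposited counts are whole numbers and were not normalised. The deposited FPKM values served only to recover transcript lengths, and the deposited TPM values were not used. A read was counted for every transcript entry it overlapped, so a symbol is represented by its entry of highest mean in the 6 libraries. For 782 symbols the entries are placed more than once on the reference, the HLA genes among them. Their counts depend on the placement, and none of them is given a value of its own.

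Genes were filtered with filterByExpr, scaled with TMM factors and tested in R 4.3.3 with edgeR 4.0.16 (quasi-likelihood test, 4 residual degrees of freedom, only these 6 libraries in the fit). Benjamini-Hochberg adjustment ran over all 15668 genes, and a call needed an adjusted p under 0.05 and an absolute log2 difference of at least 1. The test was also run on simulated data, where few genes differed and equally in both directions, so that run cannot speak to the scaling. CPM are scaled by the TMM factors. Folds against a line with no count use a floor of 3 counts over its 3 libraries, and these bounds and the intervals of low counts cover counting error only. The 49 gene lists, the members and the naming rule were chosen with earlier results of these data known. The rule named fixed myeloma genes whatever their result. From called genes whose libraries did not overlap, it took the 15 largest differences on each side with a mean of at least 3 log2 CPM. It also took up to 6 such called members and 2 uncalled members per list. The choice among genes the rule named was made after their values were seen. So was the choice of all genes named outside it (neighbours of a named gene, promoters shown, and further members of a pathway in the same paragraph).

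Gene order, chromosomes and promoters came from RefSeq (GRCh38.p14), used by symbol because the files are of another build; no other coordinates are given. Alternatives were RLE factors, library size alone, DESeq2 1.42.0, limma-voom (limma 3.58.1), edgeR's test against a 2-fold difference, no filter, a filter of 1 CPM, all 12 libraries in the fit, other ways to take a transcript, removal of a trend with length, the replicate block and each library left out. Removal of a trend with GC content and the omission of symbols placed more than once were added after the data were seen. Some genes that entered the fits and the list counts are not reported here.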

Additional observations from a re-analysis of the deposited data

Results flagged for a closer look

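For 11 of the genes named in the text, the difference between the lines changed with dBRD9-A in an edgeR interaction over all 12 libraries. The change is given as the log2 difference with dBRD9-A minus that in DMSO, ± SE, and no cause was tested.

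In 6 of them, all lower in untreated OPM2, the lines differed less with dBRD9-A. Other interferon genes named in the text did not pass, ISG15 (0.05) and IRF7 (0.70) among them. The change was -2.10 ± 0.27 for OAS2 (adjusted p = 0.00532), at 0.774 CPM in OPM2 and 63.9 in H929 with DMSO and at 4.16 and 81.4 with dBRD9-A. It was -1.69 ± 0.16 for ZBP1 (adjusted p = 0.00222), -1.70 ± 0.32 for UBE2L6 (adjusted p = 0.0398) and -3.88 ± 0.62 for LGALS3BP (adjusted p = 0.0169). LGALS3BP was at 0.0483 CPM in OPM2 and at 1.04 in H929 with DMSO and at 6.02 and 9 with dBRD9-A. APOBEC3F changed by -2.53 ± 0.36 (adjusted p = 0.00883) and the macrophage marker CD68 by -1.60 ± 0.25 (adjusted p = 0.0142).

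The other 5, all higher in untreated OPM2, had positive changes, which was not general: CCND2 (-1.70) and PARP9 (-0.97) had negative values and did not pass. TMEM173, which encodes STING, was at 52.0 CPM in OPM2 and at 11.8 in H929 with DMSO and at 102 and 94.8 with dBRD9-A, a change of 2.01 ± 0.39 (adjusted p = 0.0428). DTX3L changed by 1.24 ± 0.24 (adjusted p = 0.0426), ETS1 by 1.28 ± 0.23 (adjusted p = 0.0306) and HBD by 2.09 ± 0.41 (adjusted p = 0.0473). ABCG2, a drug efflux pump, was at 7.93 CPM in OPM2 and at 2.71 in H929 with DMSO and at 1.56 and 3.77 with dBRD9-A, a change of 2.76 ± 0.31 (adjusted p = 0.00346). These 11 values came from a fit that contains OPM2 dBRD9-A replicate 2. Without that library they kept their signs, ran from -4.00 for LGALS3BP to 2.64 for ABCG2, and had adjusted p-values of 8.39e-06 to 0.00565.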

How the results depend on the processing

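The count of 5742 called genes ranged from 4348 (1 CPM filter, 13207 genes tested) to 6787 (no filter, 21334 tested), and from 5855 to 5965 with each library left out. It was 4591 against a 2-fold null, 5655 without symbols placed more than once, and 5752 with the replicate block, which changed no call of a named gene. With library size as the only scaling it was 5803, of which 3063 were higher in H929 and 2740 higher in OPM2. With dBRD9-A, 5678 genes were called, 5038 to 6144 with each library left out and 4992 with the replicate block. The 96 genes whose difference changed with dBRD9-A became 509 without OPM2 dBRD9-A replicate 2 and 33 with the replicate block; the cause was not tested. Of the 11 discussed above, ABCG2, APOBEC3F, LGALS3BP, OAS2 and ZBP1 passed with the block (adjusted p = 0.00927 to 0.0385), and CD68, DTX3L, ETS1, HBD, TMEM173 and UBE2L6 did not (0.0527 to 0.135). The labels do not say that replicate numbers pair the libraries. Deviations from the group means correlated by 0.21, 0.21 and 0.092 over 9298 genes for numbers 1, 2 and 3, and every DMSO library correlated best with its own number, a hint from the data and not from the design.

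Of 145 named genes that were called, 135 kept their call in every alternative run and 0 changed sign. RB1, IKZF1, CCND3, DIS3, DPF3, FAM53A, IL6R, PARP9, PCNA and SAMD9L lost it in at least 1, DPF3, FAM53A, IL6R, PARP9, PCNA and SAMD9L only against the 2-fold null. Named genes near equality changed sign without being called. With the GC trend removed, PRDM1 was at 0.11, B2M at 0.064, CYLD at 0.064 and HMGCS1 at 0.13. With the length trend removed, PRDM1 was at 0.11, CYLD at 0.078, HMGCS1 at 0.10, MAGEC1 at 0.039, MAVS at 0.040 and TRAF3 at 0.030. PRDM1 was at 0.0029 with RLE factors and with DESeq2 and at 0.023 in the fit of all 12 libraries, where HMGCS1 was at 0.0064. With a library left out, PRDM1 ranged from -0.065 to 0.082, HMGCS1 from -0.13 to 0.14, MAGEC1 from -0.14 to 0.0034 and MAVS from -0.21 to 0.070. Of 98 counts of list members, 58 stayed within 1.5 times under every alternative; the others were mostly small counts that moved with the filter or the 2-fold null. At the lowest depth of 58418874 counts, genes off at under 0.1 CPM rest on few counts.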

Other observations

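ABC transporter genes were called in both directions. ABCG1, which exports cholesterol, had no count in OPM2 and 23.6, 22 and 25.4 CPM in H929, at least 1708-fold higher. ABCA1, which loads cholesterol onto apolipoproteins, was at 2.93, 1.86 and 2.07 CPM in OPM2 and at 92.6, 78.5 and 117 in H929 (5.40 ± 0.18), and ABCA2 at 0.575 ± 0.157 and 57.9 ± 3.07 (6.66 ± 0.14). Of 24 ABC transporter genes tested, 9 were higher in H929, 2 higher in OPM2 and 13 not called. The share called was 45.8%, against 36.6% of all genes (20.8% higher in H929 and 15.9% higher in OPM2). The drug pump ABCB1 was too low to be tested, and ABCG2, another drug pump, was higher in OPM2 (7.93 and 2.71 CPM).

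Genes of secreted signals and matrix differed too. WNT10B, a Wnt ligand, was at 2.78, 3.31 and 2.49 CPM in OPM2 and at 42.4, 40.2 and 36.2 in H929 (3.79 ± 0.12), while the Wnt receptor FZD8 (9.23 ± 0.929 and 1.67 ± 0.158 CPM) and LGR4 (13.1 ± 0.859 and 2.98 ± 0.136) were higher in OPM2. HSPG2, which encodes the basement membrane protein perlecan, was at 0.124 ± 0.0675 CPM in OPM2 and at 16.8 ± 1.9 in H929 (7.10 ± 0.22). FN1, fibronectin, was higher in OPM2 (15.5 ± 2.52 and 5.82 ± 0.348 CPM). Of 23 matrix genes tested, 10 were higher in H929 and 5 higher in OPM2, so that 65.2% were called against 36.6% of all genes.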
